A study of Mus musculus with 12 samples.

Results

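Expression across all genes was compared between 6 MC38 tumors from mice given PB-020 and 6 from mice not given it, which are all 12 tumors of the series. Membership followed from the treatment labels alone. The tumors given PB-020 were 3 that had PB-020 alone and 3 that had the combination (PB-020+anti-PD-1). Those not given it were 3 of the vehicle group, called CK, and 3 that had only the antibody (anti-PD-1). Because the antibody was present in 3 tumors of each arm, the comparison was fitted with the antibody as a second factor, so that each PB-020 difference is an average over tumors with and without the antibody.

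All tumors grew under the skin of female C57BL/6 mice, bought at 5 weeks of age, from injected cells of MC38, a mouse colon adenocarcinoma line. Mice were divided at random on day 7. Daily oral doses of PB-020 were 50 mg/kg, and the PD-1 antibody (clone RMP1-14) was dosed at 200 µg per mouse into the peritoneal cavity on days 9, 12, 15 and 18. CK mice received the solvent. Each library came from ground tumor tissue, so cancer cells, host stroma and infiltrating immune cells were measured together, and fewer cells of a type cannot be told apart from less RNA per cell.

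PB-020 is an inhibitor of IGF-1R, the receptor for insulin-like growth factors, developed from the cyclolignan picropodophyllin. IGF-1R is a cell surface tyrosine kinase that binds IGF1 and IGF2, recruits the adaptors IRS1 and IRS2, and passes the signal to PI3K, AKT and mTOR, which promote protein synthesis and growth, and to the RAS and ERK kinases. AKT also keeps FOXO transcription factors out of the nucleus, and FOXO factors activate genes such as Insr and Irs2 when the pathway is quiet. PD-1 is an inhibitory receptor of T cells, and an antibody to it releases their activity.

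Depth was even, with 16545394 to 17217035 expected counts per tumor. Of 18211 genes in the table, 13563 passed a minimum count filter and were tested. The markers that usually define colon epithelium were nearly absent: Krt8 and Krt18, keratins of simple epithelium, did not exceed 0.14 FPKM (fragments mapped, scaled to transcript length and sequencing depth) in any tumor, Cdx2 did not exceed 0.06, and Cdh1 lay between 1.59 and 3.96. Single libraries stood apart in markers of other tissues. The 20 skeletal muscle markers summed to 879.6 FPKM in anti-PD-1 replicate 1 and to at most 98.75 in any other tumor, the 18 neutrophil markers summed to 533.4 FPKM in CK replicate 3 and to at most 86.6 elsewhere, and the 14 adipocyte markers were also highest in CK replicate 3, at 415.3 against at most 126.4. None of these markers was at 0 in all tumors. Several list medians that moved without these libraries are given with and without them.

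No gene passed an adjusted p of 0.05 for PB-020. With edgeR's quasi-likelihood test and Benjamini-Hochberg adjustment over the 13563 genes, 0 genes were called (0%), and the smallest adjusted p was 0.242. At an unadjusted p under 0.05, 915 genes (6.75%) were higher in tumors given PB-020 and 635 genes (4.68%) were lower, 1550 in all. DESeq2, a second count model, called 73 genes at an adjusted p under 0.05, 64 higher and 9 lower, with a smallest adjusted p of 0.000908 and no adjusted p for 3687 genes, and all 73 had an unadjusted p under 0.05 in edgeR. limma on log2 FPKM called 0. Beside these values, the antibody factor in the same 12 tumors and the same fit had 3504 genes (25.8%) past an adjusted p of 0.05 by edgeR. The PB-020 differences were also small. The median log2 difference over all genes was -0.02, the 915 higher genes had a median of 0.212, the 635 lower genes a median of -0.158, and 48 genes (0.354%) differed by more than 1.5-fold at an unadjusted p under 0.05, 21 higher and 27 lower. This count rested on single libraries, with 129 genes (111 higher, 18 lower) without anti-PD-1 replicate 1, 92 (20 higher, 72 lower) without anti-PD-1 replicate 2 and 72 (23 higher, 49 lower) without anti-PD-1 replicate 3. Of the 48 genes, 23 did not reach 1 FPKM in any tumor.

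Separation of the tumors was counted next. On CPM (counts scaled to library size), the 3 PB-020 tumors lay above the 3 CK tumors and the 3 combination tumors above the 3 anti-PD-1 tumors for 134 genes (0.988%), and below them in both for 80 genes (0.59%). All 6 tumors given PB-020 lay above all 6 others for 48 genes (0.354%) and below all 6 others for 7 genes (0.0516%).

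The 8 higher genes of smallest p did not pass the adjusted test in edgeR, and their differences lay between 0.33 and 0.45 on the log2 scale, each with an adjusted p of 0.242. They were Timm8a1, Psmc6, Ormdl1, Uqcrb, Hat1, Nup37, Gnpnat1 and Rpf2. DESeq2 called all 8 of them, at adjusted p from 0.000908 to 0.0114. Timm8a1 (chrX:134537256-134541670, GRCm38.p6), a small chaperone that escorts proteins across the space between the mitochondrial membranes, read 42.2, 34.2 and 36.0 FPKM in the CK tumors and 48.9, 54.7 and 57.3 in the PB-020 tumors. With the antibody it read 55.0, 48.5 and 60.8 in anti-PD-1 tumors and 73.2, 75.8 and 63.7 in combination tumors. PB-020 tumors thus lay above their own controls within each antibody stratum, while the arms of 6 overlapped because the antibody groups were higher as well. The fitted difference was 0.45 ± 0.08 (SE), 0.53 without the antibody and 0.37 with it. A close relative, Timm8a2, shares sequence with this gene, so the assignment of its fragments is less certain.

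Psmc6 (chr14:45329823-45349074), an ATPase subunit of the proteasome cap that unfolds proteins for degradation, had a lowest, median and highest FPKM of 117, 126 and 162 in the 6 tumors given PB-020 and 91.6, 96.9 and 120 in the 6 others. The groups did not overlap within either stratum on the FPKM scale, although the lowest combination tumor, at 120.93, was just above the highest anti-PD-1 tumor, at 120.44. Its difference was 0.40 ± 0.07, with 0.41 without the antibody and 0.39 with it, and near-identical copies make the assignment of its fragments uncertain. Ormdl1 (chr1:53297095-53310245), a regulator of sphingolipid synthesis in the endoplasmic reticulum, ranged from 13.2 to 15.4 FPKM with PB-020 and from 9.75 to 12.5 without, so that all 6 tumors given it were above all 6 others.

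Uqcrb (chr13:66900576-66905350), a subunit of respiratory complex III, also separated all 12 tumors. It read 263, 228 and 261 FPKM in CK, 219, 256 and 284 in anti-PD-1, 295, 306 and 314 in PB-020 and 325, 370 and 314 in combination tumors, and its difference was 0.34 ± 0.07. Rpf2 (chr10:40223246-40247039), which assembles the large ribosomal subunit in the nucleolus, read 33.9 to 44.5 FPKM with PB-020 and 24.9 to 31.9 without, again with no overlap. Nup37 (chr10:88146976-88178395), a component of the nuclear pore, ranged from 46.28 to 60.8 with PB-020 and from 37.0 to 46.27 without, so the arms were barely apart on the FPKM scale and overlapped on CPM. Hat1, which acetylates new histone H4, had medians of 55.2 and 42.7 FPKM with and without PB-020, and Gnpnat1, an enzyme of the hexosamine pathway, had medians of 22.4 and 16.96, and both arms overlapped for these genes.

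The 8 lower genes of smallest p, after 1 unnamed gene model was left out, had differences between -0.17 and -0.58 and adjusted p of 0.242 in edgeR. They were Arhgap21, Cdh13, Pdgfrb, Mcm3ap, Zbtb8b, Mapkbp1, Trp53inp2 and C1qtnf1. Of these, DESeq2 called Arhgap21, Cdh13, Pdgfrb, Mcm3ap and C1qtnf1. Arhgap21 (chr2:20847919-20968691), a GTPase-activating protein that acts on the Golgi and the cytoskeleton, read 17.97, 19.16 and 19.04 FPKM in CK and 16.1, 17.04 and 15.01 in PB-020 tumors, and 16.2, 17.1 and 16.2 in anti-PD-1 and 14.2, 13.5 and 15.2 in combination tumors. The PB-020 tumors were below their controls in both strata, and the difference was -0.20 ± 0.04 over all tumors, -0.20 without the antibody and -0.21 with it. Cdh13 (chr8:118140017-119324929), a cadherin held at the membrane by a lipid anchor, had a lowest, median and highest FPKM of 41.5, 54.1 and 66.2 with PB-020 and 49.8, 61.8 and 75.8 without. Its arms overlapped, while within each stratum they did not.

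Pdgfrb, the PDGF receptor of fibroblasts and pericytes, read 31.0, 34.9 and 37.6 FPKM in CK, 27.7, 29.6 and 29.2 in PB-020, 27.0, 28.6 and 24.3 in anti-PD-1 and 21.8, 21.6 and 24.5 in combination tumors. The strata gave -0.23 and -0.22, and the combination and anti-PD-1 tumors overlapped by 1 tumor on the FPKM scale. Its relative Pdgfra, also a fibroblast receptor, had a difference of -0.29 ± 0.08. Mcm3ap, which takes part in export of messenger RNA, C1qtnf1, a secreted relative of adiponectin, Mapkbp1, a scaffold of JNK signaling, and Zbtb8b, a zinc finger protein at under 2 FPKM, were below their controls in both strata, and Trp53inp2, a regulator of autophagy, only without the antibody, its tumors overlapping with it.

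**Figure D1:**
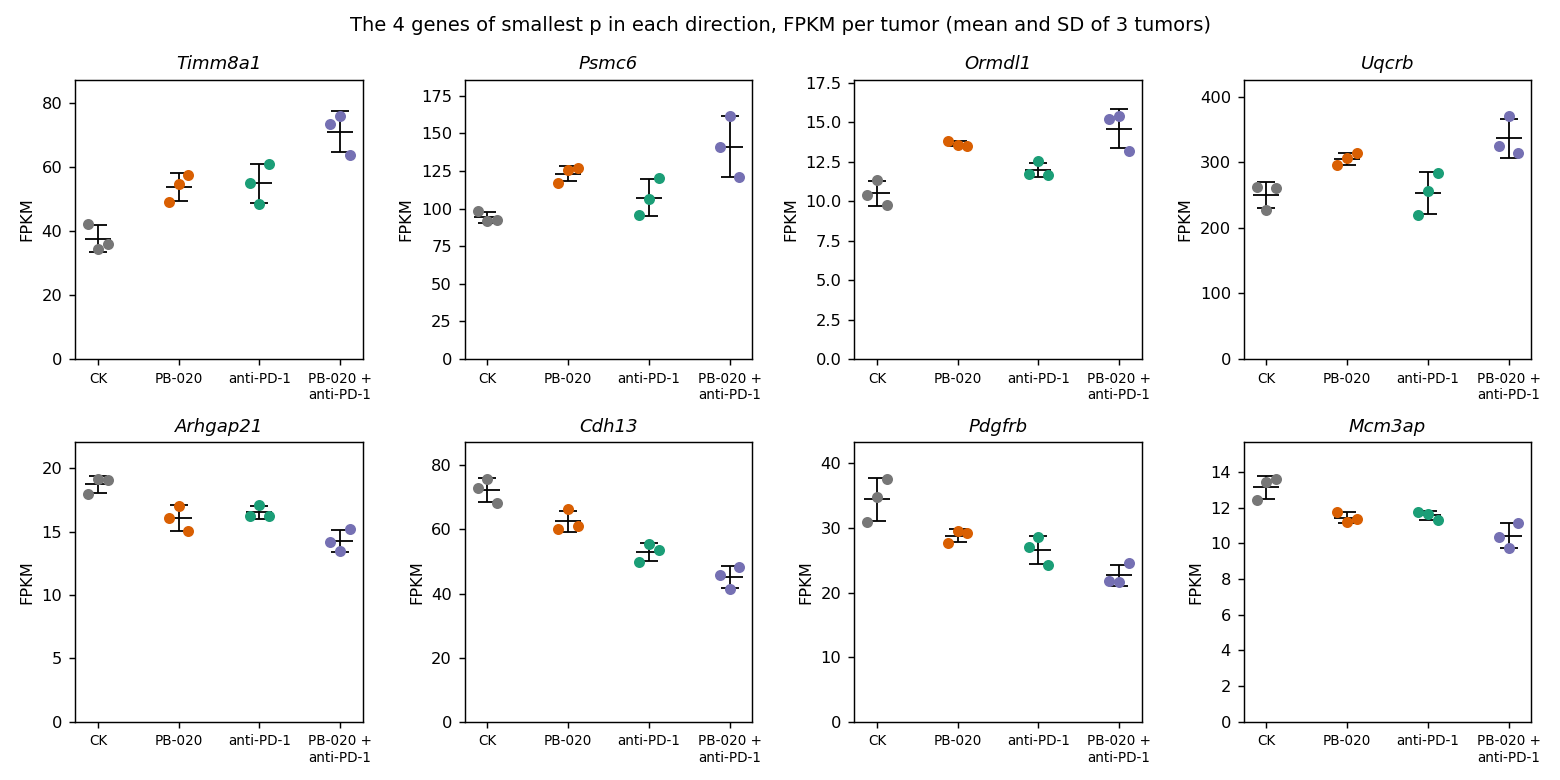
FPKM of the 4 genes of smallest p in each direction (vertical axes, starting at 0) in the 3 tumors of each of the 4 groups (horizontal axis). Points are tumors, horizontal ticks the mean and bars the SD of 3 tumors. Timm8a1 and Cdh13 differ with PB-020 in both strata and also with the antibody, whereas Uqcrb shows all tumors given PB-020 at 295 FPKM or more and all others at 284 or less.

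The genes at an unadjusted p under 0.05 differed in transcript length. Effective length, the number of positions at which a fragment can start, was recovered from the ratio of expected count to FPKM for 13557 of the genes tested. Its median was 1704 bases in the 915 higher genes, 4213 in the 635 lower genes and 2700 in all genes. For the 64 higher and 9 lower genes called by DESeq2 it was 1336 and 4688 bases, so those calls also differed in length. In the eighth of the genes with the shortest transcripts, up to 1158 bases, 309 genes (18.2%) were higher and 13 (0.767%) lower, with a median log2 difference of 0.07. In the eighth with the longest transcripts, above 5456 bases, 19 genes (1.12%) were higher and 209 (12.3%) lower, with a median of -0.07. The share that was higher declined through the 8 length classes, and the share that was lower grew. The medians of the shortest and longest classes were 0.07 and -0.06 without the antibody and 0.09 and -0.07 with it, whereas those of the antibody factor were 0.00 and 0.01.

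GC content gave a second axis. The higher genes had a median GC content of 42.9% in the longest annotated transcript, the lower genes 51.1% and all genes 49.8%. Among the eighth of lowest GC content, up to 42.03%, 392 genes (23.5%) were higher and 15 (0.9%) lower. In the eighth of highest GC content 26 (1.56%) were higher and 65 (3.9%) lower, against 4.68% lower over all genes. The share that was lower was largest in the class from 47.39% to 49.78%, at 7.26%, and was smaller in the classes above it.

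**Figure D2:**
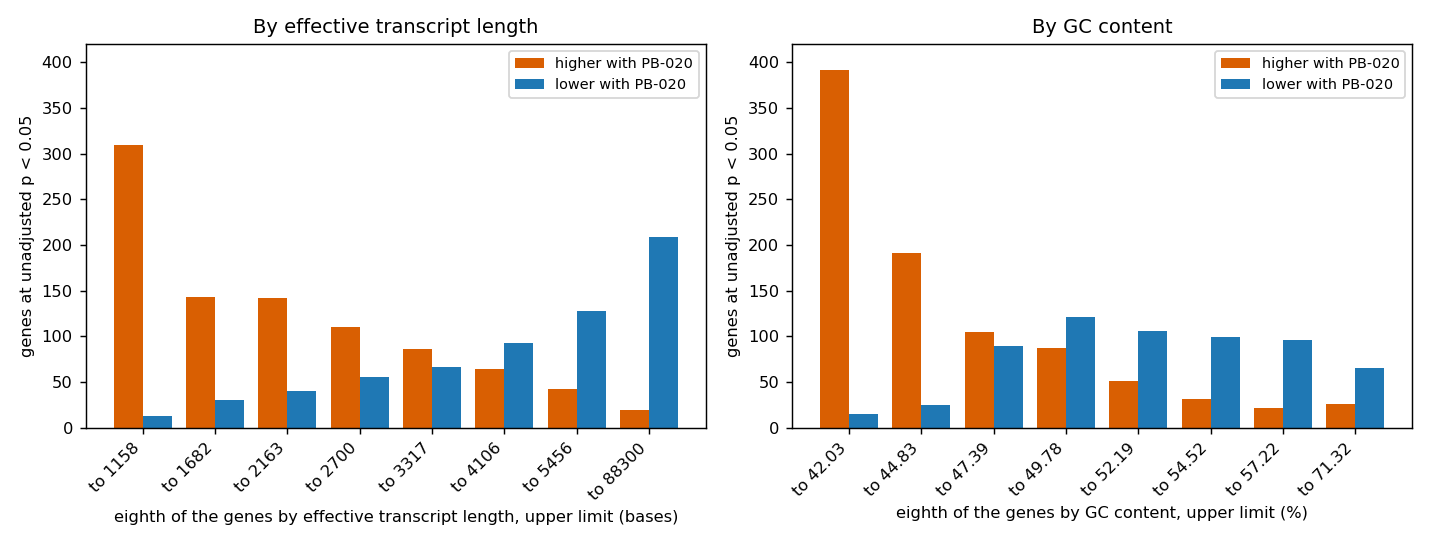
Number of genes at unadjusted p under 0.05 that were higher (orange) or lower (blue) in tumors given PB-020 (vertical axes) in 8 equal classes of genes by effective transcript length in bases and by GC content in percent (horizontal axes, upper limit of each class). The counts run from 309 higher and 13 lower in the shortest class to 19 higher and 209 lower in the longest.

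Each tumor was then placed on the length axis by the median log2 level of the shortest class minus that of the longest, relative to the mean of the 12 tumors. The tumors given PB-020 had values from -0.00291 to 0.226 with a median of 0.0464, and the others from -0.224 to 0.0381 with a median of -0.0537. The arms overlapped, and the ends were held by combination replicate 2, at 0.226, and anti-PD-1 replicate 1, at -0.224. When a smooth trend against length and GC content was removed from each library, 0 genes were called by edgeR, 567 genes were higher and 487 lower at an unadjusted p under 0.05, and the shortest and longest classes held 126 and 54 higher genes and 92 and 54 lower ones. With both end libraries left out in place of this correction, 697 genes were higher and 505 lower, and 0 were called. Timm8a1 kept 0.39 under the correction, Hat1 0.28 and Cdh13 -0.21, whereas Uqcrb had 0.09 in place of 0.34 and Mcm3ap -0.07 in place of -0.17. The source of the trend was not tested.

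Genes were also grouped by function in 33 lists with 17 lists of cell type markers beside them. No member of any list passed an adjusted p of 0.05 by edgeR for PB-020. Lists are therefore described by their medians and by members at an unadjusted p under 0.05. Main-effect counts are to be read against the background of 6.75% higher and 4.68% lower. Counts with the length and GC trends removed have another background, 567 higher and 487 lower of 13563 genes in that fit. DESeq2 called some members, Rps14, Rpl21, Cox6c, Cth, Psph, Scd1 and Lamc1 among them.

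The machinery of translation and respiration had positive medians. Of 82 cytosolic ribosomal protein genes tested, 80 had a positive difference, 42 (51.2%) were higher and 0 lower. Among all 13563 genes tested, the background for the sign counts of every list, 6033 had a positive and 7530 a negative difference. The median of the ribosomal list was 0.19 on the log2 scale against -0.02 over all genes, 0.17 without the antibody and 0.19 with it. Rpl21, a protein of the large subunit, ranged from 756 to 983 FPKM with PB-020 and from 495 to 749 without, so the arms were barely apart on the FPKM scale, and they overlapped on CPM. Rps14, of the small subunit, ranged from 2391 to 3030 FPKM with PB-020 and from 1785 to 2411 without. Ribosomal protein genes have many near-identical processed copies, so how fragments were shared among them is uncertain. Their median effective length was 552 bases. With the length and GC trends removed the list's median was 0.09 with 30 members higher and 3 lower, without anti-PD-1 replicate 1 it was 0.12, and without both end libraries 0.09. The list's level in anti-PD-1 replicate 1 was -0.415 relative to the mean of all tumors, with the other 5 tumors not given PB-020 between -0.108 and 0.0444.

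Of 77 mitochondrial ribosomal protein genes, 17 (22.1%) were higher and 0 lower, with a median of 0.06, which was 0.03 without anti-PD-1 replicate 1. Mrpl32 had medians of 51.9 FPKM with PB-020 and 40.7 without. Of 77 subunits of oxidative phosphorylation, 26 (33.8%) were higher and 2 (2.6%) lower, with a median of 0.10, which was 0.07 without anti-PD-1 replicate 1 and 0.07 without combination replicate 2. Cox6c, a subunit of cytochrome c oxidase, read 288, 312 and 294 FPKM in PB-020 tumors against 240, 220 and 254 in CK, and 336, 398 and 313 in combination tumors against 201, 247 and 291 in anti-PD-1, with a difference of 0.41 ± 0.09. The tumors were apart within both strata for Cox6c. With length and GC trends removed, the medians of these lists were -0.00422 and 0.00354, with 8 higher and 3 lower in the first and 12 higher and 10 lower in the second. Both are lists of short transcripts, with median effective lengths of 907 and 520.5 bases.

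Because most members of these lists had differences of one sign, their promoters were read for 3 motifs on both strands, each in a window of 300 bases around the annotated start. CCGGAAG, the core bound by ETS factors, was present in 24 of 61 cytosolic ribosomal promoters found in RefSeq (39.3%), in 24 of 68 mitochondrial ribosomal promoters (35.3%) and in 15 of 63 promoters of respiratory subunits (23.8%), against 9.12% of all 27025 promoters of this length, 17.6% of those of genes tested and 0 of 29 collagen promoters. GCATGCG, from the site of NRF1, was in 6.56%, 11.8% and 15.9% of the same lists against 3.64% of all promoters and 6.28% of those of genes tested. AAGATGG, from the site of YY1, was in 16.4%, 19.1% and 14.3% against 6.48% and 7.13%. CCGGAAG ends in the letters AAG with which AAGATGG begins, so one site can hold both. Among the genes higher with PB-020 at an unadjusted p under 0.05, CCGGAAG was in 26.1% of promoters, and among the lower genes in 16.5%. The other motifs hardly differed from the genes tested. AAGATGG was in 9.04% of higher and 7.42% of lower promoters (genes tested 7.13%), and GCATGCG in 6.5% and 6.39% (genes tested 6.28%). For each list, the promoter of the member of smallest p whose promoter could be shown is given with these motifs in capitals, from RefSeq on GRCm38.p6: Rps27l (chr9:66945836-66946135, plus strand), Mrpl32 (chr13:14612988-14613287, minus strand) and Ndufv2 (chr17:66101510-66101809, minus strand).
Rps27l: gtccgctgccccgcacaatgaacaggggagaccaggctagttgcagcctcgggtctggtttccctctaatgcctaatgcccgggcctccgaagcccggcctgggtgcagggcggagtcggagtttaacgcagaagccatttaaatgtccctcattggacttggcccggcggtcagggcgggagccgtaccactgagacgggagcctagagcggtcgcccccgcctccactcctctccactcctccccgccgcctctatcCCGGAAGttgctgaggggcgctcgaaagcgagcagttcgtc
Mrpl32: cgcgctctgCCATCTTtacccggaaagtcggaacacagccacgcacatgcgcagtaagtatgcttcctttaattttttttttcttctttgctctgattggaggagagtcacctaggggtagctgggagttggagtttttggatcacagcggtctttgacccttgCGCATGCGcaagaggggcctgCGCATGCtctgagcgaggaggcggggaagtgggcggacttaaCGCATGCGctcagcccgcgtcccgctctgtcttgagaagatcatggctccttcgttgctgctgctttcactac
Ndufv2: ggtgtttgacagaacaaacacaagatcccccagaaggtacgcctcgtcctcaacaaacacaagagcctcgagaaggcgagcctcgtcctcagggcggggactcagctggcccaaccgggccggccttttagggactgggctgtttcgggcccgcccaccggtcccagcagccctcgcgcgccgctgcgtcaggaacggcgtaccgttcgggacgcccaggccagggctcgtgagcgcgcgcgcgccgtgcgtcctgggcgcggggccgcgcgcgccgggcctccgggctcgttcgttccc
The first holds CCGGAAG just past the start, the second holds AAGATGG once, on the other strand, and GCATGCG at several places on both strands, and none of the 3 motifs is in the third window.

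The receptor that PB-020 targets did not pass the test. Igf1r (chr7:67952257-68233668) had a lowest, median and highest FPKM of 9.53, 10.5 and 10.9 with PB-020 and 10.1, 10.955 and 11.9 without, and the arms overlapped. Its difference was -0.09 ± 0.04, with an adjusted p of 0.477 by edgeR, and 0.02 with the length and GC trends removed, its transcript being 11442 bases long. Insr, the insulin receptor, had a median of 5.28 FPKM with PB-020 and 6.36 without and a difference of -0.18 ± 0.06 (adjusted p = 0.282 by edgeR). Igf2r, which removes IGF2 from the cell surface, had -0.23 ± 0.07.

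Of the ligands, Igf1 was 1.13 to 3.12 FPKM with PB-020 and 0.82 to 1.62 in 5 of the tumors without it, with 5.86 in anti-PD-1 replicate 1, and its difference of -0.06 was 0.49 without that tumor. Igf2 had as few as 2 counts in a tumor, and its difference of -0.94 was -0.26 without the same tumor. Among the adaptors, Irs1 read 2.92, 3.10 and 3.06 FPKM in CK, 2.67, 2.54 and 2.49 in PB-020, 2.33, 2.33 and 2.18 in anti-PD-1 and 2.0, 2.10 and 2.14 in combination tumors. The tumors given PB-020 were below their controls in both strata, with a difference of -0.17 ± 0.05 (adjusted p = 0.242 by edgeR), which was -0.07 with the length and GC trends removed. Irs2 had -0.05 ± 0.07 and Akt1, a kinase at the centre of the pathway, 0.01 ± 0.05, with medians of 105 and 108 FPKM.

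Over the whole axis of IGF and insulin receptors, ligands, binding proteins and adaptors, 0 of 21 genes were higher and 4 (19%) lower, with a median of -0.06. Without anti-PD-1 replicate 1, whose level for this list was 0.359 against at most 0.0989 elsewhere, the median was -0.03. With the trends removed 1 member was higher and 1 lower. Of 42 PI3K, AKT and mTOR kinases and regulators, 3 (7.14%) were higher and 2 (4.76%) lower, near the shares over all genes of 6.75% and 4.68%. The lower ones were Tsc1 and Tsc2, the subunits of the complex that restrains mTORC1, with -0.16 and -0.15, and the higher ones included Eif4e, the cap-binding translation factor, with 0.16, and Sgk3, a kinase related to AKT, with 0.21. Tsc1 and Tsc2 were -0.06 each once the trends were removed, and the list then had 2 members higher and 3 lower. Of 38 FOXO factors and targets, 1 (2.63%) was higher and 3 (7.89%) lower, among them Insr and Sesn1, a stress-responsive inhibitor of mTORC1 (-0.24), with a median of -0.07. Of 24 ERK feedback and output genes, 1 (4.17%) was higher, Fosl1, a subunit of AP-1 (0.16), and 0 lower. Members of these lists that were named for their p were selected by it.

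**Figure D3:**
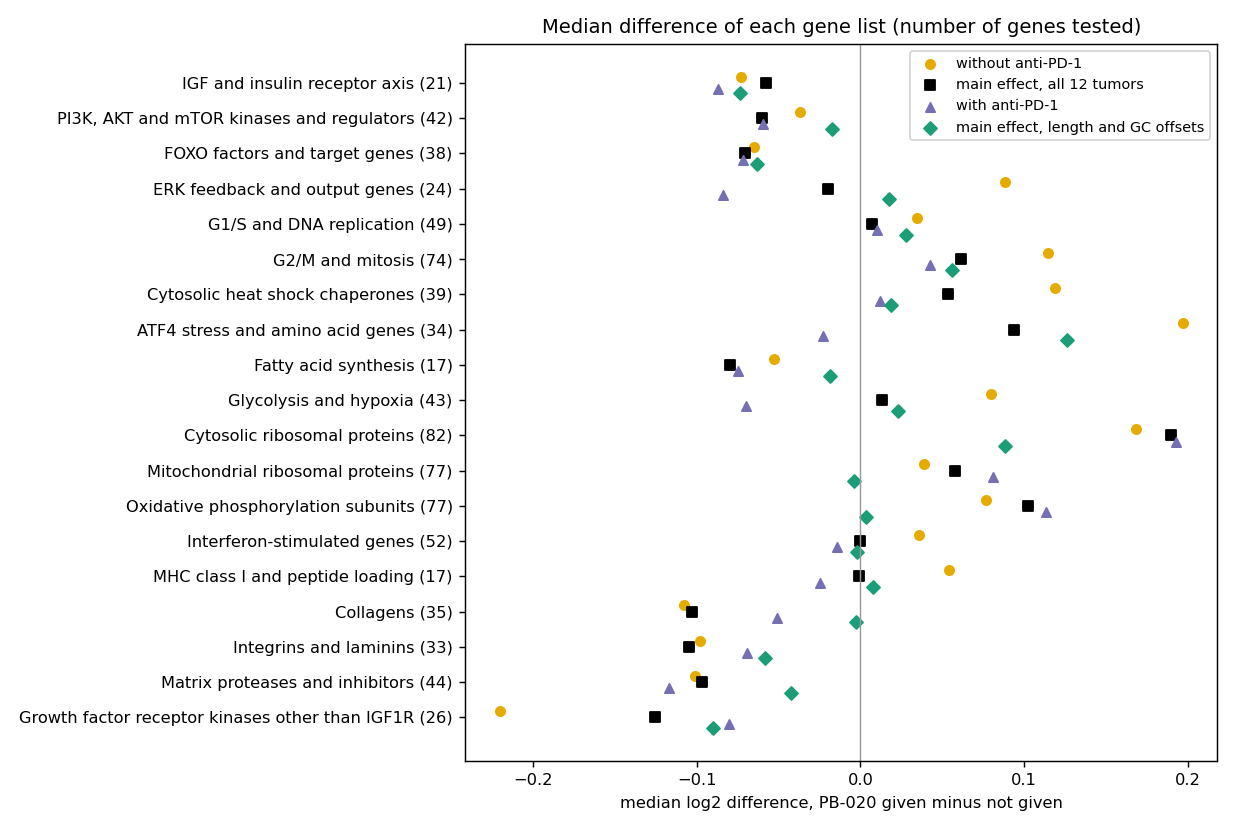
Median log2 difference between tumors given and not given PB-020 (horizontal axis) for 19 gene lists (vertical axis, number of genes tested in brackets). Circles are tumors without anti-PD-1, triangles with it, squares the main effect over 12 tumors and diamonds the main effect with length and GC trends removed. Cytosolic ribosomal proteins sit at 0.19 and at 0.09 after the correction, and the ATF4 list at 0.20 without and -0.02 with the antibody.

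The genes of the ATF4 response, which cells use to make and import amino acids under stress, differed between the strata in their values. Of 34 members, 8 (23.5%) were higher and 0 lower in the main effect, with a median of 0.09. Without the antibody 17 were higher, 0 were lower and the median was 0.20, and with it 1 was higher, 0 were lower and the median was -0.02. Over all genes, 3.12% were higher without the antibody and 4.45% with it. Anti-PD-1 replicate 1 had the highest level of its group for this list, 0.107 against 0.0176 and -0.0552. The main-effect median was 0.11 without that tumor and 0.07 without CK replicate 3, the lowest value with 1 replicate left out. The CK tumors had levels of -0.163, -0.0219 and -0.166. With length and GC trends removed, 17 members were higher in the main effect and 0 lower, with a median of 0.13, so the correction raised the count for this list. Cth, which makes cysteine from cystathionine, read 5.51, 4.63 and 5.46 FPKM in CK and 11.3, 12.1 and 8.67 in PB-020 tumors, and 10.9, 7.17 and 6.92 in anti-PD-1 and 10.9, 9.78 and 9.02 in combination tumors. PB-020 tumors were clear of CK, while the combination and anti-PD-1 tumors overlapped. The differences were 1.06 and 0.25, and 0.65 ± 0.17 over all tumors (adjusted p = 0.242 by edgeR).

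Psph and Psat1, enzymes of serine synthesis, were above their controls in both strata. Psph read 27.7, 27.1 and 28.6 FPKM in PB-020 tumors against 23.2, 20.6 and 21.6 in CK, and 25.3, 26.04 and 22.8 in combination tumors against 22.5, 21.6 and 22.1 in anti-PD-1. Its difference was 0.27 ± 0.06, and that of Psat1 0.18 ± 0.06. The list's level per tumor was -0.166 to 0.107 without PB-020 and -0.0390 to 0.126 with it, which overlap. The difference between the strata was not tested for the list.

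Genes of proliferation were counted in a pair of lists. Of 74 G2/M and mitosis genes, 13 (17.6%) were higher and 0 lower with a median of 0.06, and of 49 G1/S and replication genes, 7 (14.3%) were higher and 0 lower with a median of 0.01. With 1 replicate left out these medians ranged from 0.01 to 0.10 and from -0.01 to 0.03, so the sign of the second was not stable. Ccne2, a cyclin that drives entry into S phase, had medians of 13.6 and 9.91 FPKM with and without PB-020 and a difference of 0.42 ± 0.09, and Cdk1, the kinase of mitotic entry, 51.5 and 41.2 FPKM and 0.28 ± 0.08. Both arms overlapped for both genes. With trends removed 7 and 5 members were higher in the 2 lists. Of 39 cytosolic chaperones 8 (20.5%) were higher, led by Hsp90aa1, an inducible HSP90, with 0.30, and 3 after the trends were removed.

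Fatty acid and cholesterol synthesis were counted separately. Of 17 genes of fatty acid synthesis, 0 were higher and 4 (23.5%) lower, with a median of -0.08. Scd1, which desaturates fatty acids, read 71.9, 79.8 and 95.4 FPKM in CK, 61.5, 68.1 and 62.3 in PB-020, 63.1, 68.3 and 56.9 in anti-PD-1 and 57.9, 51.8 and 56.6 in combination tumors. The CK tumors were above the PB-020 tumors, and the other groups overlapped. Its difference was -0.26 ± 0.07, and Acaca, the first enzyme of the pathway, had -0.16 ± 0.05. With trends removed the list's median was -0.02 and 2 members were lower. Of 25 genes of cholesterol synthesis 13 had a positive and 12 a negative difference, and 0 were higher and 0 lower.

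Lists of matrix and receptors had negative medians. Collagens had a median of -0.10 with 3 of 35 (8.57%) lower and 0 higher, integrins and laminins -0.10 with 3 of 33 (9.09%) lower, matrix proteases and inhibitors -0.10 with 6 of 44 (13.6%) lower, genes of TGF-beta signaling -0.05 with 5 of 31 (16.1%) lower, and other growth factor receptor kinases -0.13 (-0.07 without anti-PD-1 replicate 1) with 3 of 26 lower. Lamc1, a laminin chain of basement membranes, had -0.20 ± 0.06, Plat, a plasminogen activator, -0.20 ± 0.06, and Mmp2, a gelatinase, -0.24 ± 0.08. These lists have long transcripts, with median effective lengths of 5932 bases for collagens and 4881 for integrins and laminins. Anti-PD-1 replicate 1 had the highest collagen level of the 12 tumors, at 0.579, and without it the median of the collagens was 0.03, that of the integrins and laminins -0.05 and that of the matrix proteases -0.03. With trends removed the collagen median was -0.00245 with 1 higher and 0 lower.

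**Figure D4:**
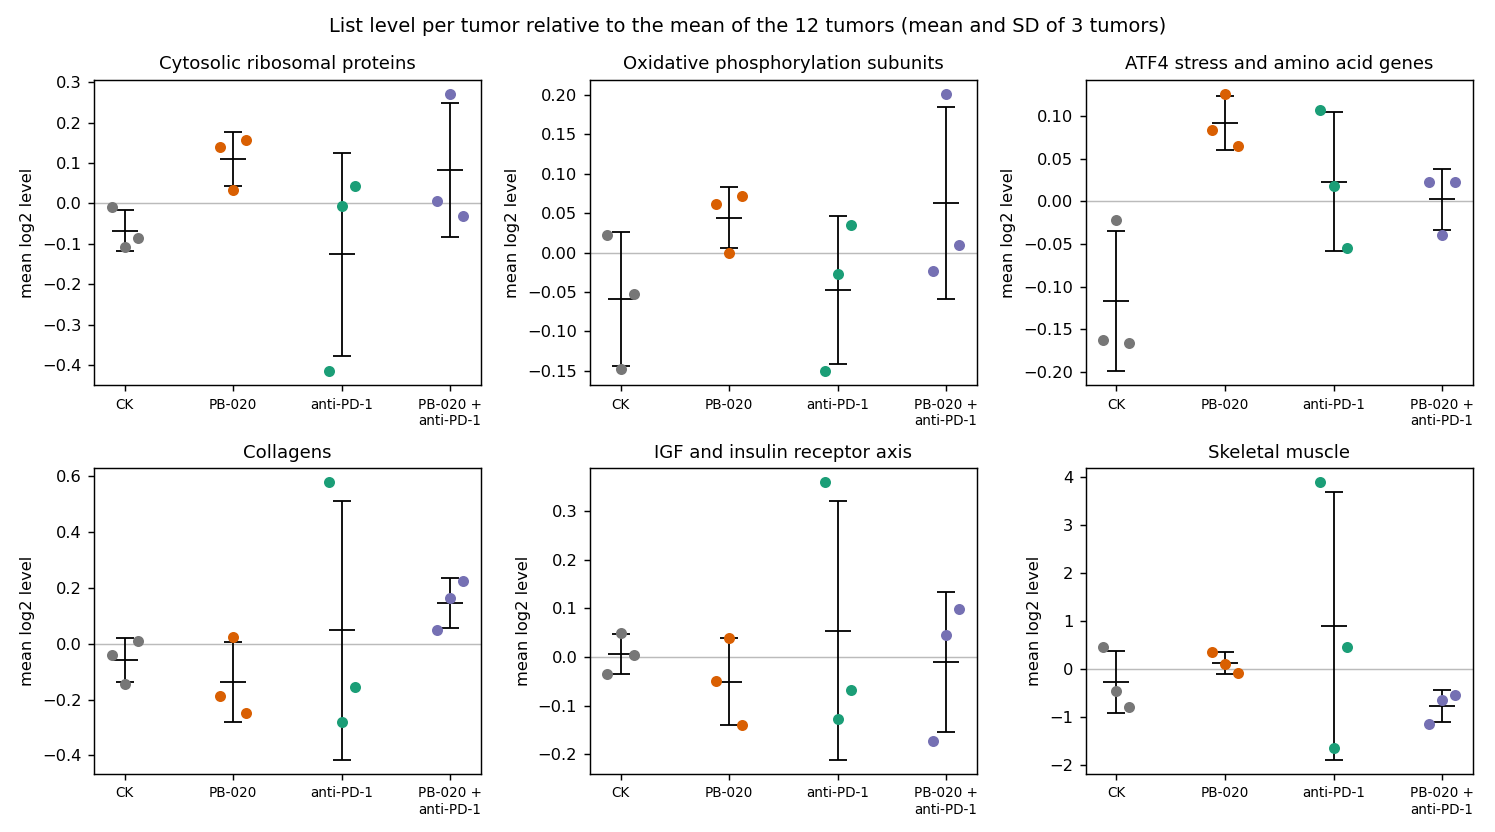
Mean log2 level of 6 gene lists relative to the mean of the 12 tumors (vertical axes) in the 3 tumors of each group (horizontal axes). Points are tumors, ticks the mean and bars the SD of 3 tumors. Anti-PD-1 replicate 1 is at -0.415 for ribosomal proteins, 0.579 for collagens and 3.88 for skeletal muscle, apart from the other tumors of its group.

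The immune lists gave few genes for PB-020. Of 52 interferon-stimulated genes 1 (1.92%) was higher and 0 lower with a median of 0.00, which ranged from -0.12 to 0.18 with 1 replicate left out and was 0.18 without CK replicate 3. Of 17 genes of MHC class I presentation 0 were higher and 0 lower with a median of 0.00 and a range from -0.07 to 0.05. In the same fit, 26 and 14 members of these lists passed an adjusted p of 0.05 for the antibody, all higher. Pdcd1, the gene of PD-1, had a lowest, median and highest FPKM of 0.90, 2.12 and 3.28 with PB-020 and 0.79, 1.57 and 5.32 without, and its difference was 0.07 ± 0.25. Cd274, the gene of its ligand PD-L1, had medians of 13.4 and 14.7 FPKM and a difference of -0.18 ± 0.24. In both genes the arms overlapped, and the differences depended on single libraries. Pdcd1 had 0.36 without anti-PD-1 replicate 1 and -0.09 without PB-020 replicate 3. Cd274 had -0.02 without anti-PD-1 replicate 1 and -0.03 without CK replicate 3.

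Among 19 T cell markers 17 had a positive difference and 0 were at an unadjusted p under 0.05, with a median of 0.21, which became 0.51 without anti-PD-1 replicate 1. The 19 markers summed to 68.4 to 132.8 FPKM with PB-020 and to 54.0 to 163.9 without. Of 21 markers of cytotoxic and NK cells, with a median of 0.20 (0.32 without anti-PD-1 replicate 1 and 0.10 without combination replicate 2), 2 (9.52%) were higher, Klra4, a receptor of NK cells, with 0.36 ± 0.10, and Klrd1, the CD94 chain of NK receptors, with 0.71 ± 0.24. Klrd1 ranged from 2.68 to 15.4 FPKM with PB-020 and from 2.39 to 10.6 without, and the arms overlapped. Of 27 macrophage and monocyte markers 0 were higher and 0 lower. Klra genes form a family of close copies, so the value of Klra4 is uncertain.

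Lists of vessels and stroma had negative medians, -0.17 for 20 endothelial markers, 19 of them negative and 1 lower, -0.14 for 15 pericyte and smooth muscle markers with 1 lower, and -0.07 for 20 fibroblast markers with 3 lower. Without anti-PD-1 replicate 1 these medians were -0.09, -0.03 and 0.13. The summed endothelial markers lay between 95.9 and 117.2 FPKM with PB-020 and between 87.1 and 160.1 without. Skeletal muscle had a median of -1.44 and -0.10 without that tumor, and neutrophil markers -0.49 and 0.31 without CK replicate 3. The skin list had a median of 1.85, which was 0.69 without combination replicate 2 and 1.22 without PB-020 replicate 3, with a level of 3.14 in combination replicate 2 and 2.45 in PB-020 replicate 3, and Krtdap, a protein of the upper epidermis, read 17.4 and 11.1 FPKM in these and at most 2.07 in the others.

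The PB-020 difference was next taken in each antibody stratum, which share no tumor. Without the antibody, 423 genes (3.12%) were higher and 318 (2.34%) lower at an unadjusted p under 0.05, and 0 were called by edgeR, with 6 called by DESeq2. With the antibody, 603 (4.45%) were higher and 381 (2.81%) lower, and 0 were called by edgeR, with 1 called by DESeq2. When each stratum was fitted from its own 6 tumors, 687 genes were higher without the antibody, and 561 of them (81.7%) had a positive difference with it, against 43.7% of all genes, while 439 were lower and 346 of them (78.8%) had a negative one, against 56.3%. Of these, 133 of the higher (19.4%, all genes 2.82%) and 15 of the lower (3.42%, all genes 1.49%) also had an unadjusted p under 0.05 in the other stratum with the same sign. Chosen the other way, 330 of 382 higher genes (86.4%, all genes 48.7%) and 141 of 202 lower genes (69.8%, all genes 51.3%) kept their sign. Across the 13563 genes, which are not independent, Spearman's rho between the strata was 0.28 and Pearson's r 0.17, given as a description. The length trend was present in both strata, so the shares are not free of it.

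**Figure D5:**
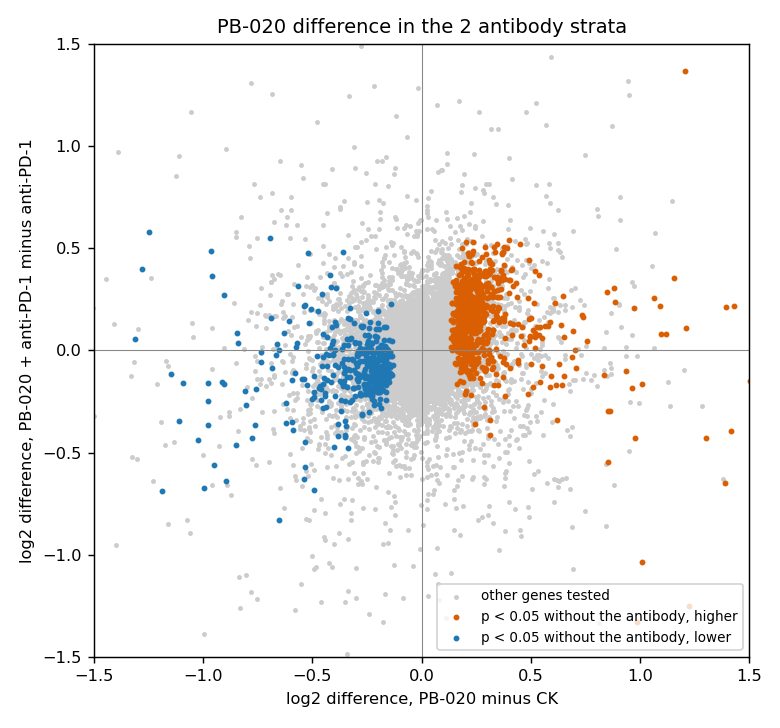
Log2 difference of each gene tested between PB-020 and CK tumors (horizontal axis) and between combination and anti-PD-1 tumors (vertical axis), each fitted from its own 6 tumors. Genes at an unadjusted p under 0.05 without the antibody are orange (687 higher) and blue (439 lower), and 561 and 346 of them have the same sign on the vertical axis. The axes end at 1.5, which leaves out 137 genes.

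Whether the PB-020 difference depended on the antibody was tested by the interaction term. It called 0 genes in edgeR and 0 in DESeq2, with 310 genes (2.29%) at an unadjusted p under 0.05 in edgeR, 115 with a more positive difference under the antibody and 195 with a more negative one. The 3 genes of smallest p in each sign had an adjusted p of 0.9998 by edgeR. With a more negative difference under the antibody they were Aldh1l2, a folate enzyme of mitochondria, Fam171b, a membrane protein, and Bhlhe40, a transcriptional repressor. Aldh1l2 read 13.6, 15.7 and 14.1 FPKM in CK, 21.1, 19.8 and 20.02 in PB-020, 20.4, 16.9 and 16.0 in anti-PD-1 and 18.1, 15.7 and 16.8 in combination tumors, and its differences were 0.50 without the antibody and -0.07 with it. PB-020 tumors were clear of CK, and the tumors with the antibody overlapped. Bhlhe40 read 36.9, 35.7 and 44.6 FPKM in CK, 46.4, 55.5 and 41.2 in PB-020, 71.2, 58.6 and 67.9 in anti-PD-1 and 50.2, 50.6 and 55.4 in combination tumors. The first groups overlapped, and the combination tumors were all below the anti-PD-1 tumors. With a more positive difference they were Plac9a, a small secreted protein, Mat2a, which makes the methyl donor S-adenosylmethionine, and Tenm3, a neuronal adhesion protein.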

How the data were processed

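RNA from 12 tumors was read as 150-base pairs. The authors aligned reads with Bowtie2 to mm10 (GRCm38.p6; the submitters' notes also name HISAT) and deposited RSEM expected counts and FPKM per gene, versions and annotation not given in the sources used here. Whole-number values made up 91% of expected counts, and all were rounded before testing. Genes passing filterByExpr (minimum count 10) were fitted in edgeR 4.0.16 (R 4.3.3) with TMM scaling and robust quasi-likelihood, PB-020 and anti-PD-1 as additive factors, and Benjamini-Hochberg adjustment. The standard error is the log2 difference divided by the root of F. DESeq2 1.42.0 and limma 3.58.1 on log2(FPKM + 1) or log2(FPKM + 0.1) were alternatives. List levels are means of log2 CPM (prior count 2). Scripts were tested on simulated data. Fits removing length and GC trends, or both end libraries, were added after seeing the data, and members and lists were chosen with earlier results of these data known.

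Named genes were the leading genes by p in each direction (up to 8 where none passes, unnamed gene models left out), Igf1r, Insr, Igf1, Igf2, Irs1, Irs2, Akt1, Pdcd1 and Cd274, up to 4 members of each list by p, and 3 genes of each sign by interaction p. Krt8, Krt18 and Cdx2 fall outside this rule and were named after their values were seen. Nothing in the labels states separate mice, so p-values measure the spread between these tumors only. No interval for counting error was computed. Same-numbered tumors were checked for pairing by correlation of deviations from group means.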

Additional observations from a re-analysis of the deposited data

Results flagged for a closer look

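Among 162 arms of 6 tumors tested with Dixon's rule, 9 held a tumor far from the rest, near the 1 in 20 or so that chance gives. All 9 were arms not given PB-020. Most were flagged for the same tumor, anti-PD-1 replicate 1, so they are not independent. In anti-PD-1 replicate 1 the IGF and insulin receptor axis stood at 0.3593 on the mean log2 scale (others -0.1278 to 0.04902), cytosolic ribosomal proteins at -0.4146 (others -0.1075 to 0.04438), collagens at 0.5791 (others -0.281 to 0.01078), integrins and laminins at 0.3813 (others -0.0545 to -0.003922) and Schwann cell markers at 0.5833 (others -0.2842 to 0.01336). The same tumor read 24.94 FPKM for Rpf2 (others 29.8 to 31.89), 5.86 for Igf1 (others 0.82 to 1.62) and 1.24 for Igf2 (others 0.17 to 0.33). In CK replicate 3 neutrophil markers stood at 2.407 (others -0.9076 to 0.1902).

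Of 218 named genes compared between the strata, 2 had all tumors moving opposite ways, Plac9a and Mat2a. Both had been named for a small interaction p, so this flag is not independent of their choice. The share over all genes tested was not counted. Plac9a read 13.9 to 16.3 FPKM in PB-020 against 16.5 to 20.9 in CK tumors, and 12.2 to 21.4 in combination against 2.94 to 9.30 in anti-PD-1 tumors, and the strata differed by 1.76447 on the log2 scale. Mat2a read 82.3 to 90.2 against 93.3 to 97.4 FPKM, and 91.04 to 104.7 against 74.9 to 86.2, a difference of 0.368765. Neither interaction passed an adjusted p of 0.05 by edgeR.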

How the results depend on the processing

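The count of 0 genes called by edgeR held with every replicate left out in turn (0 to 0), with other scaling, filters, covariates and corrections, and in limma, while DESeq2 called 73, and 6 without and 1 with the antibody. The 48 genes past 1.5-fold became 2 with limma on log2(FPKM + 1), 219 with no filter, 21 with a filter of 10 counts and over 1 CPM in at least 6 tumors and 95 without both end libraries, and ranged from 42 to 129 with 1 replicate left out. The 129 came without anti-PD-1 replicate 1 (111 higher, 18 lower), 92 without anti-PD-1 replicate 2 and 72 without replicate 3. Higher and lower genes at an unadjusted p under 0.05 were 821 and 851 with library size alone and 701 and 284 with no covariate, and 679 to 1079 and 389 to 785 with 1 replicate left out. Of 43 higher genes chosen with the antibody at an unadjusted p under 0.01, 35 (81.4%, all genes 48.7%) kept their sign without it. Of 18 such lower genes, 9 (50%) did, no larger a share than the 51.3% of all genes. The median of oxidative phosphorylation subunits was -0.00349 once the length trend was removed. The causes were not tested. Over all settings, 5569 values of single genes kept side and direction, 28 passed the adjusted threshold, all in DESeq2, and 54 changed sign. The sign changes fell in 21 of 218 genes, Igf1 (-0.25 to 0.49), Akt1 (-0.01 to 0.04) and Bhlhe40 (-0.10 to 0.07) among them, each at an unadjusted p above 0.05 under both settings. The median of 22 of 50 lists changed sign under at least 1 setting (131 values).

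Same-numbered tumors did not deviate together more than others did. Their 18 pairs had r from -0.21 to 0.289, with 2 above 0.1. The 36 other pairs had r from -0.218 to 0.355, with 9 above 0.1. Deviations from the mean of a small group are not independent, so this check cannot exclude pairing. Nor can it exclude a shared order of preparation or sequencing, which the labels do not state. With the replicate block 0 genes were called in each comparison, 42 passed 1.5-fold, and 852 were higher and 521 lower.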
